A study of Homo sapiens with 24 samples.

Results

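HVCN1, which encodes the voltage-gated proton channel Hv1, was studied together with 5 genes of the phagocyte-type NADPH oxidase, namely CYBB, CYBA, NCF1, NCF4 and RAC2. These 6 genes are each read by 1 of the 25575 rows of a Clariom D microarray table that holds 25161 gene symbols. HVCN1 was chosen on values of these same arrays, since it met the call rule in the Burkitt line DG-75 in 3 comparisons (AZD against DMSO, Ento+AZD against DMSO and Ento+AZD against Ento). In RefSeq HVCN1 lies on chromosome 12, CYBB on X, CYBA on 16, NCF1 on 7 and NCF4 and RAC2 on 22. The oxidase genes were added for their function, with those results known. The HVCN1 differences between treatments in DG-75 are therefore given as a description without a test.

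The arrays measured total RNA of 2 cultured B-lymphoma lines. SU-DHL-4 is a diffuse large B-cell lymphoma (DLBCL) line of the germinal centre type, and DG-75 is a Burkitt's lymphoma (BL) line. Both were kept in culture medium with serum and exposed for 72 h to DMSO (the solvent control), to 1 µM Entospletinib (Ento, an inhibitor of the kinase SYK), to 0.01 µM AZD5153 (AZD, a bivalent inhibitor of the BET chromatin readers) or to both agents (Ento+AZD). Each of the 8 groups has 3 arrays from cultures that the labels describe as biological replicates, so that the number of arrays limits the precision. With 1 line for each lymphoma type, line and lymphoma type cannot be told apart.

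The NADPH oxidase moves electrons across a membrane to make superoxide. CYBB (gp91phox) is the catalytic subunit, which is held in the membrane by CYBA (p22phox). NCF1 (p47phox) and NCF4 (p40phox) join it from the cytosol together with the GTPase RAC2. Electron export leaves charge and acid inside the cell, and Hv1 lets protons out to balance both. In B cells Hv1 associates with the B-cell receptor, and oxidants made near the receptor can inactivate phosphatases such as PTPN6 (SHP-1), which restrain the receptor's kinases, SYK among them. Active SYK is the direct target of Ento, whereas AZD acts on transcription.

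All values are log2 levels after RMA normalisation by the authors. Differences are on the log2 scale, and a gene was called when its Benjamini-Hochberg adjusted p over all 25575 rows was below 0.05 in limma and its difference exceeded 1, which is a 2-fold change. The medians of the 24 arrays lay between 4.89 and 5.14, and arrays of a group correlated with r between 0.981 and 0.993 over all rows. Of the B-cell markers, CD79A was between 11.21 and 12.43 on every array, whereas MS4A1 (CD20) was between 11.27 and 11.83 in SU-DHL-4 and between 6.22 and 8 in DG-75. The oxidase is best known from phagocytes, and 10 monocyte and granulocyte marker genes had a mean level between 3.82 and 4.14 in SU-DHL-4 and between 3.78 and 4.2 in DG-75. The arrays come without detection calls, so a low level cannot be read as presence or absence of a transcript.

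Of the 6 genes, CYBB and NCF1 were called between the lines, and both were higher in SU-DHL-4. The promoter table used here held 3 of the 6 genes, CYBB, NCF1 and CYBA, and not HVCN1, NCF4 or RAC2. These 3 promoters are shown because the same 6 letters stand at nearly the same place in CYBB and NCF1. The sequences are those of RefSeq (GRCh38.p14), each 300 bases long from 250 bases before to 50 bases after the gene's start and written along the gene's strand. Capitals mark GAGGAA, a core sequence of the kind bound by PU.1 (the product of SPI1), searched on both strands, which reads TTCCTC where it lies on the strand not printed. The positions are CYBB at chrX:37779809-37780108 (plus strand), NCF1 at chr7:74773761-74774060 (plus strand) and CYBA at chr16:88651004-88651303 (minus strand).
CYBB: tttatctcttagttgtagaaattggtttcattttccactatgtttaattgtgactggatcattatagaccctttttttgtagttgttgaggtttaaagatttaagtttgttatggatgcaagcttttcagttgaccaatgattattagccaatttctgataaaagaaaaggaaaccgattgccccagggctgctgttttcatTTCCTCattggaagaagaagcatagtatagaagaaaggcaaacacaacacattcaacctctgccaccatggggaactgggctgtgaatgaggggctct
NCF1: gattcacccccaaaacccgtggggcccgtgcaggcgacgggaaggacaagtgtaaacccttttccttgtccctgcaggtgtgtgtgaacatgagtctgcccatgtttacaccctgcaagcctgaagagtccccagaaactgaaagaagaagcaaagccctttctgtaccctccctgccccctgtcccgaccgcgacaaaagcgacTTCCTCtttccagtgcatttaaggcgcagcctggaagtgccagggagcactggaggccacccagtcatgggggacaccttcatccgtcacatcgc
CYBA: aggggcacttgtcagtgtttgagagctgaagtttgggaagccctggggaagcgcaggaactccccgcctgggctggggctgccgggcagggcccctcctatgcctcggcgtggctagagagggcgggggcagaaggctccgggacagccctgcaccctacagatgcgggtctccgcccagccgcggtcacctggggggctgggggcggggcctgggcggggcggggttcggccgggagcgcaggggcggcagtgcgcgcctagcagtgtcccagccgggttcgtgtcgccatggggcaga
Counted in bases from the gene's start, the capitals begin at -48 in CYBB and at -45 in NCF1, and the letters are absent from the 300 bases of CYBA. They are common, since 27.9% of all 35116 promoters of this length hold them on one strand or the other, so a match describes the sequence and is no sign of binding. The promoters differ in composition: 37.7% of the CYBB bases, 57.3% of the NCF1 bases and 72.7% of the CYBA bases are G or C, beside a median of 58.7% over all promoters. The CYBB stretch holds 1 CpG, that of NCF1 11 and that of CYBA 23.

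HVCN1 was lower in DG-75 cells exposed to AZD, with or without Ento. Its levels in DG-75 were 6.64, 6.36 and 6.56 in the replicates 1 to 3 of DMSO and 6.61, 6.66 and 6.68 in those of Ento. They were 5.23, 5.12 and 5.56 with AZD and 5.11, 5.06 and 5.44 with Ento+AZD. The 6 arrays with AZD all lay below the 6 without it, whereas DMSO overlapped with Ento and AZD with Ento+AZD. The mean went from 6.52 ± 0.15 (SD, n = 3) with DMSO to 5.3 ± 0.23 (SD, n = 3) with AZD, a difference of -1.22 (SE 0.139), which is 2.32-fold lower. Ento+AZD was lower than DMSO by a difference of -1.32 (SE 0.139) and lower than Ento by -1.45 (SE 0.139), a 2.73-fold lower level. These are the values that chose the gene. In the same comparisons 0.18% (AZD against DMSO), 0.833% (Ento+AZD against DMSO) and 0.657% (Ento+AZD against Ento) of all rows were called. In these bulk samples, fewer cells of a kind and less RNA per cell cannot be told apart.

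**Figure D1:**
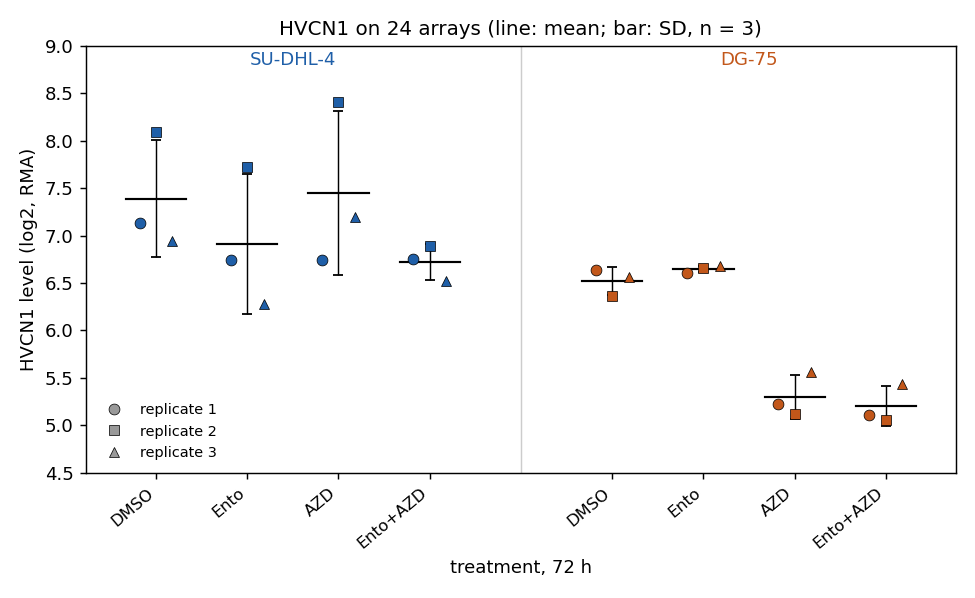
HVCN1 level (log2, RMA) on each of the 24 arrays, by line and treatment, with symbols for the replicate number, lines for the group mean and bars for the SD (n = 3). The DG-75 arrays with AZD lie between 5.06 and 5.56 and those without between 6.36 and 6.68, whereas replicate 2 of SU-DHL-4 stands above its group with DMSO, Ento and AZD.

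The size of the HVCN1 difference in DG-75 varied little between fits, but its side of the call threshold did not hold everywhere. Over 18 alternative fits the difference of AZD against DMSO lay between -1.32 and -1.11, and HVCN1 was no longer called in 11 of them, among these every fit that left out an array or a replicate number. For Ento+AZD against DMSO the difference lay between -1.42 and -1.21 and the call was lost in 4 of 18 fits (those lacking the first DMSO array, the first Ento+AZD array, all arrays numbered 1 or all numbered 2). For Ento+AZD against Ento it lay between -1.56 and -1.33 and the call was lost in 6 of 18 fits. Ento+AZD differed from AZD by -0.10 (SE 0.139) and Ento alone from DMSO by 0.13 (SE 0.139).

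In SU-DHL-4 no comparison of HVCN1 passed the test. Its levels were 7.13, 8.09 and 6.94 with DMSO, 6.74, 7.72 and 6.28 with Ento, 6.74, 8.41 and 7.2 with AZD and 6.75, 6.89 and 6.52 with Ento+AZD. The 3 Ento+AZD arrays lay below the 3 DMSO arrays, with 6.89 the highest of the former and 6.94 the lowest of the latter, whereas Ento and AZD overlapped with DMSO. Replicate 2 was the highest of its group each time, by about 1 log2 unit except with Ento+AZD. AZD differed from DMSO by 0.06 (95% interval -0.46 to 0.58, adjusted p = 0.953). Ento differed from DMSO by -0.48 (SE 0.239, adjusted p = 0.618). Ento+AZD differed by -0.67 (SE 0.239, adjusted p = 0.211). The latter value rested in part on 1 array, since it was -0.34 without Ento+AZD replicate 2 and -0.40 without all arrays numbered 2. Over all fits with arrays left out it lay between -0.87 and -0.34. Against AZD, Ento+AZD differed by -0.73 (adjusted p = 0.573). With arrays left out this lay between -1.10 and -0.34, the smallest without the arrays numbered 2.

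The responses of HVCN1 in the 2 lines were set against each other over all 24 arrays, as a description, since their DG-75 side chose the gene. The AZD response of SU-DHL-4 exceeded that of DG-75 by 1.28 (SE 0.291, and 0.488 without the replicate block). The Ento+AZD response of SU-DHL-4 exceeded that of DG-75 by 0.65 (SE 0.291), with 0.40 to 0.97 when arrays were left out. The lowest value came without all arrays numbered 1 and the highest without SU-DHL-4 Ento+AZD replicate 2. For the difference of the AZD responses limma called no row (0.0% of 25575, with 1576 rows at an unadjusted p below 0.05), so none of the 6 genes either. The response to Ento differed by -0.61 (SE 0.291). With DMSO alone HVCN1 was at 7.39 ± 0.62 (SD, n = 3) in SU-DHL-4 and at 6.52 in DG-75, a difference of 0.87 (SE 0.345, adjusted p = 0.0906). It was 0.44 (adjusted p = 0.221) without the arrays numbered 2, and with the replicate number as a block its adjusted p was 0.00474, still under the 2-fold minimum. Ordered by mean, the 4 SU-DHL-4 groups stood above DG-75 Ento and DG-75 DMSO, and each neighbouring pair in that order overlapped except DG-75 DMSO and DG-75 AZD.

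The neighbours of HVCN1 on chromosome 12 that have a row, TCTN1, which overlaps 745 bases of HVCN1 in RefSeq, and PPP1CC, were not called in any comparison of a drug with DMSO. In DG-75 with AZD, TCTN1 differed by -0.13 (adjusted p = 0.78) and PPP1CC by -0.30 (adjusted p = 0.309). TCTN1, a protein of the ciliary transition zone, was higher in SU-DHL-4 with DMSO by 1.22 (SE 0.265, adjusted p = 0.00163), while PPP1CC, a catalytic subunit of protein phosphatase 1, differed by -0.06 (adjusted p = 0.81). Over the DG-75 arrays TCTN1 had a median level of 4.6, below the median of every array, so the sizes of its differences are uncertain. HVCN1 is read by 1 row, so long and short forms of the channel are not separated here.

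CYBB, the catalytic subunit, stood far apart between the lines. Its levels with DMSO were 9.84, 10.31 and 9.43 in SU-DHL-4 and 4.47, 4.74 and 4.51 in DG-75. All 12 SU-DHL-4 arrays, which lay between 9.34 and 10.8, were above all 12 DG-75 arrays, which lay between 3.66 and 5.43. The difference with DMSO was 5.29 (SE 0.245, adjusted p = 1.35e-13), and it lay between 5.06 and 5.50 in 17 alternative fits. The DG-75 DMSO levels lie below every array's median and are not shown to stand above background, so the size of the difference is given without a fold. Across the genes, 7.2% of all rows were called between the lines under DMSO, and 2 of the 6 genes were called, CYBB and NCF1, both higher in SU-DHL-4.

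**Figure D2:**
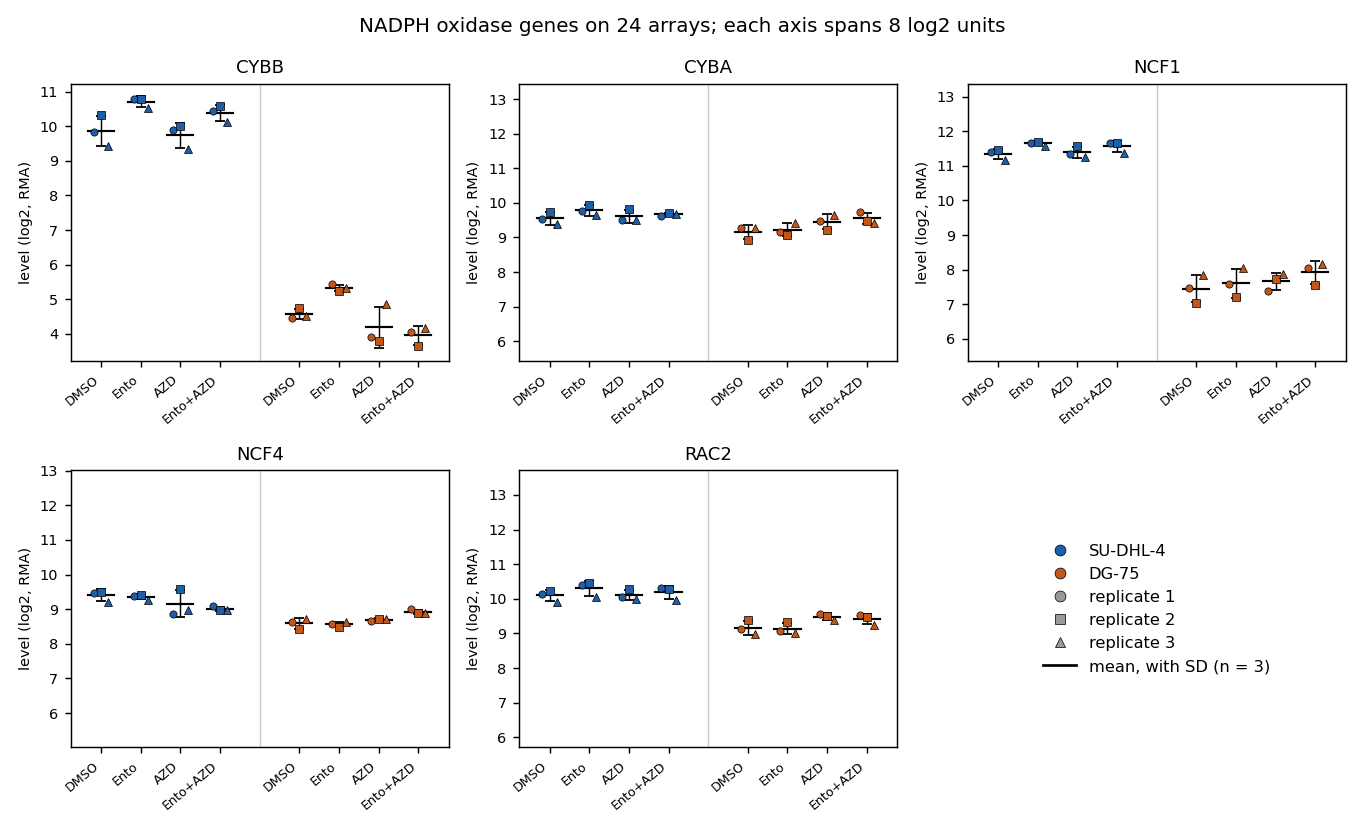
Levels (log2, RMA) of CYBB, CYBA, NCF1, NCF4 and RAC2 on the 24 arrays by line and treatment, with symbols for the replicate number, lines for the mean and bars for the SD (n = 3), on axes that each span 8 log2 units. CYBB and NCF1 separate SU-DHL-4 from DG-75 by 5.29 and 3.90 with DMSO, while CYBA differs by 0.38.

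CYBB had a higher mean with Ento than with DMSO in both lines. In SU-DHL-4 its levels were 10.8, 10.79 and 10.54 with Ento, and all 3 lay above the highest DMSO array. The difference was 0.85 (SE 0.152, adjusted p = 0.0863), which is 1.80-fold. In DG-75 the levels were 5.43, 5.25 and 5.32 with Ento, again all above the 3 DMSO arrays, and the difference was 0.76 (SE 0.225, adjusted p = 1). Neither difference passed the test within its line, and 0 of the 6 genes were called for Ento in SU-DHL-4 (2 at an unadjusted p below 0.05) or in DG-75 (1 at an unadjusted p below 0.05), where 0.0508% and 0.00391% of all rows were called. In SU-DHL-4 the adjusted p of CYBB was 0.0365 after subtraction of each array's median, 0.00306 with a prior variance that follows the level and 0.0497 without the rows under the median level, with the difference below 1 in each. It was 0.45 without the replicate block and between 0.153 and 1 with arrays left out.

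The Ento difference of CYBB was then averaged over both lines, a fit chosen after these values were seen. It was 0.80 (SE 0.138, 95% interval 0.51 to 1.09, adjusted p = 0.0363) and all 6 Ento arrays lay above the 3 DMSO arrays of their line. Without the replicate block the adjusted p of this average was 0.144. In that average 0.0626% of all rows had an adjusted p below 0.05, and CYBB did not exceed the 2-fold minimum. With 1 of the 12 arrays left out at a time, the difference stayed between 0.72 and 0.91 and the adjusted p lay between 0.0127 and 0.140, and it was below 0.05 in 3 of these 12 fits (those lacking replicate 2 of DMSO in SU-DHL-4, replicate 2 of DMSO in DG-75 or replicate 3 of Ento in DG-75). The response to Ento did not differ between the lines beyond error (0.09, 95% interval -0.49 to 0.67, adjusted p = 1), a comparison in which 0.00782% of all rows were called. With arrays left out this value lay between -0.125 and 0.263. The DG-75 DMSO mean of 4.57 lies below every array's median. The sizes of the DG-75 response, of the average and of the difference between the lines are therefore uncertain.

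With Ento+AZD, CYBB lay above DMSO on average in SU-DHL-4 and below it in DG-75. In SU-DHL-4, CYBB was at 9.88, 10.01 and 9.34 with AZD and at 10.45, 10.58 and 10.12 with Ento+AZD. The Ento+AZD arrays all lay above the AZD arrays and overlapped with DMSO, with a difference of 0.52 from DMSO (SE 0.152, adjusted p = 0.107) and of 0.64 from AZD (SE 0.152, adjusted p = 0.369). The adjusted p against DMSO was 0.0349 after quantile normalisation, 0.0453 after subtraction of array medians, 0.0107 with the prior that follows the level, 0.0405 without low rows and 0.387 without the replicate block. Against AZD it was 0.0298 with that prior and 0.891 without the block. In DG-75 the levels were 3.91, 3.79 and 4.86 with AZD and 4.06, 3.66 and 4.16 with Ento+AZD. The Ento+AZD arrays all lay below the DMSO arrays and far below the Ento arrays, and the spread with AZD came from replicate 3. Ento+AZD differed from Ento by -1.37 (SE 0.225, adjusted p = 0.0211), and CYBB was the 1 gene called of the 5 that this comparison did not choose, beside 0.657% of all rows. The Ento+AZD levels lie below every array's median as well, so no fold is given. This call was lost in 8 of 18 alternative fits, in which the difference stayed between -1.51 and -1.26. Its adjusted p was 0.159 in a fit of the 2 groups alone, 0.158 and 0.102 without the Ento replicates 1 and 2, 0.146, 0.0722 and 0.0557 without the Ento+AZD replicates 1 to 3, and 0.332 and 0.171 without all arrays numbered 1 or 2. Against DMSO, Ento+AZD differed by -0.61 (adjusted p = 0.204, -0.79 to -0.38 with arrays left out) and AZD by -0.39 (adjusted p = 0.498, -0.75 to -0.10), and since the means on both sides of these differences lie below every array's median, their sizes are uncertain.

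**Figure D3:**
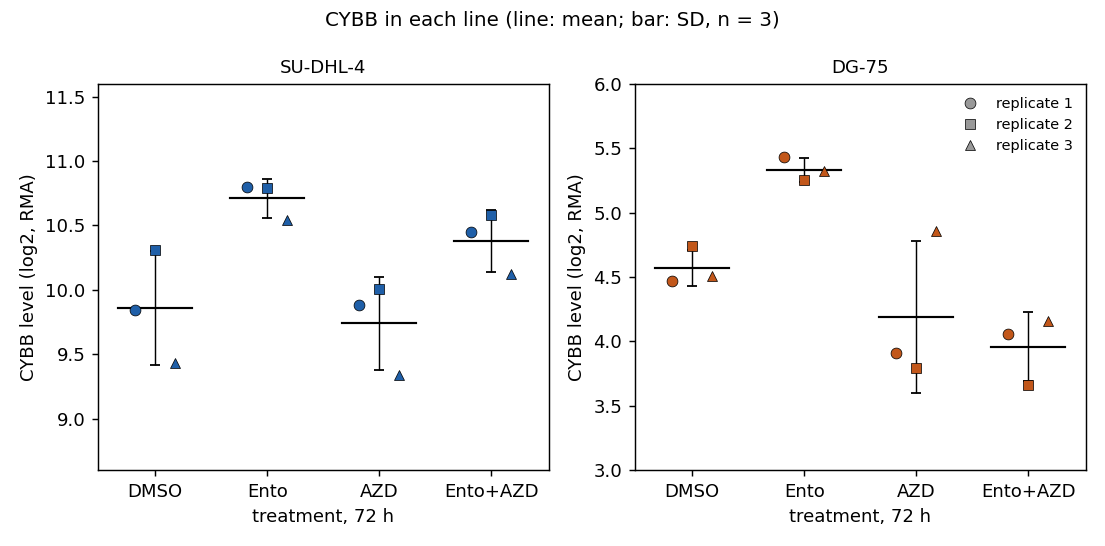
CYBB level (log2, RMA) of each line by treatment, on separate axes that each span 3 log2 units, with symbols for the replicate number, black lines for the mean and bars for the SD (n = 3). The Ento arrays lie above the DMSO arrays in both lines, and the Ento+AZD arrays lie between 10.12 and 10.58 in SU-DHL-4 and between 3.66 and 4.16 in DG-75.

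The Ento+AZD response of CYBB in SU-DHL-4 exceeded that of DG-75 by 1.13 (SE 0.276, adjusted p = 0.208), in a comparison where 0.0352% of all rows were called, none of the 6 genes among them. In DG-75 the Ento+AZD difference of CYBB departed from the sum of the differences with each agent by -0.98 (SE 0.319, 95% interval -1.69 to -0.28, adjusted p = 1). Both values rest on DG-75 levels that, with DMSO, AZD and Ento+AZD, averaged below every array's median, so their sizes are uncertain too. In SU-DHL-4 the corresponding departure from additivity was -0.21 (95% interval -0.67 to 0.26, adjusted p = 0.961). Called rows made up 0.0% of the table for additivity in either line, with 672 rows at an unadjusted p below 0.05 in DG-75 and 1276 in SU-DHL-4.

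CYBA, the membrane partner of CYBB, differed little between the lines. It lay between 9.38 and 9.95 on the 12 SU-DHL-4 arrays and between 8.94 and 9.74 on the 12 DG-75 arrays, which overlapped. With DMSO it was at 9.55 ± 0.18 (SD, n = 3) in SU-DHL-4 and at 9.16 ± 0.19 (SD, n = 3) in DG-75, a difference of 0.38 (SE 0.154, adjusted p = 0.0987, and 0.0427 with the replicate number as a block). Without all arrays numbered 2 the difference was 0.18 and without those numbered 3 it was 0.52. In DG-75 it differed from DMSO by 0.29 with AZD (adjusted p = 0.412) and by 0.38 with Ento+AZD (adjusted p = 0.219), neither of which passed the test. CYBC1, a chaperone needed for the CYBB and CYBA pair, was higher in SU-DHL-4 by 0.43 (adjusted p = 0.0358), under the 2-fold minimum.

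NCF1, the organising cytosolic subunit, was the other gene that was called between the lines. Its levels with DMSO were 11.41, 11.46 and 11.18 in SU-DHL-4 and 7.46, 7.05 and 7.84 in DG-75, a difference of 3.90 (SE 0.21, adjusted p = 1.96e-12), which is 15.0-fold. All 12 SU-DHL-4 arrays, at 11.18 to 11.7, lay above all 12 DG-75 arrays, at 7.05 to 8.16. NCF1 has near-identical copies on chromosome 7, NCF1B and NCF1C, so probes may not separate them and the source of the signal is uncertain. NCF1B differed by 3.94 (adjusted p = 3.01e-12) and NCF1C by 3.47 (adjusted p = 1.12e-13), and the NCF1 and NCF1B rows correlated with r of 0.886 over the 12 SU-DHL-4 arrays and 0.907 over the 12 DG-75 arrays. NCF1 and NCF1C correlated with 0.912 and 0.516 over these arrays, and NCF1B and NCF1C with 0.891 and 0.375. Under the drugs NCF1 differed most in DG-75 with Ento+AZD, at 8.05, 7.55 and 8.16, by 0.47 (SE 0.174, adjusted p = 0.204). In SU-DHL-4 it differed by 0.30 with Ento (SE 0.133, adjusted p = 0.57).

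NCF4 and RAC2 differed less between the lines. NCF4, which binds phosphoinositides and sustains the active oxidase, was at 9.48, 9.51 and 9.2 in SU-DHL-4 and at 8.64, 8.43 and 8.71 in DG-75 with DMSO. The groups did not overlap, and the difference of 0.81 (SE 0.151, adjusted p = 0.000363) was 1.75-fold and under the minimum. RAC2, the GTPase of the complex, lay between 9.92 and 10.45 on the SU-DHL-4 arrays and between 8.97 and 9.57 on the DG-75 arrays, again without overlap. Its difference with DMSO was 0.94 (SE 0.152, adjusted p = 6.91e-05), just under the minimum, and it exceeded it after quantile normalisation (1.01) and without SU-DHL-4 DMSO replicate 3 (1.03) or DG-75 DMSO replicate 2 (1.04). By the adjusted p alone 4 of the 6 genes differed between the lines, all higher in SU-DHL-4, where 17.6% of all rows passed. With the replicate number as a block all 6 passed by the adjusted p alone, and the share of all rows that passed in that fit is not given here. The calls were again CYBB and NCF1, among 1858 called rows (1842 without the block).

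NCF4 lay on opposite sides of DMSO in the lines with Ento+AZD, and neither difference passed the test. In SU-DHL-4 its levels were 9.08, 8.99 and 8.97 with Ento+AZD, all below the DMSO arrays, with a difference of -0.38 (SE 0.17, adjusted p = 0.333). In DG-75 they were 9.01, 8.9 and 8.89, with a difference of 0.34 (SE 0.124, adjusted p = 0.198), and all 3 lay above every other DG-75 array. The difference of the responses was -0.73 (SE 0.202, 95% interval -1.15 to -0.30, adjusted p = 0.316). RAC2 in DG-75 differed from DMSO by 0.32 with AZD (SE 0.128, adjusted p = 0.293) and by 0.25 with Ento+AZD (adjusted p = 0.379). In SU-DHL-4 its differences from DMSO lay between 0.01 and 0.20.

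**Figure D4:**
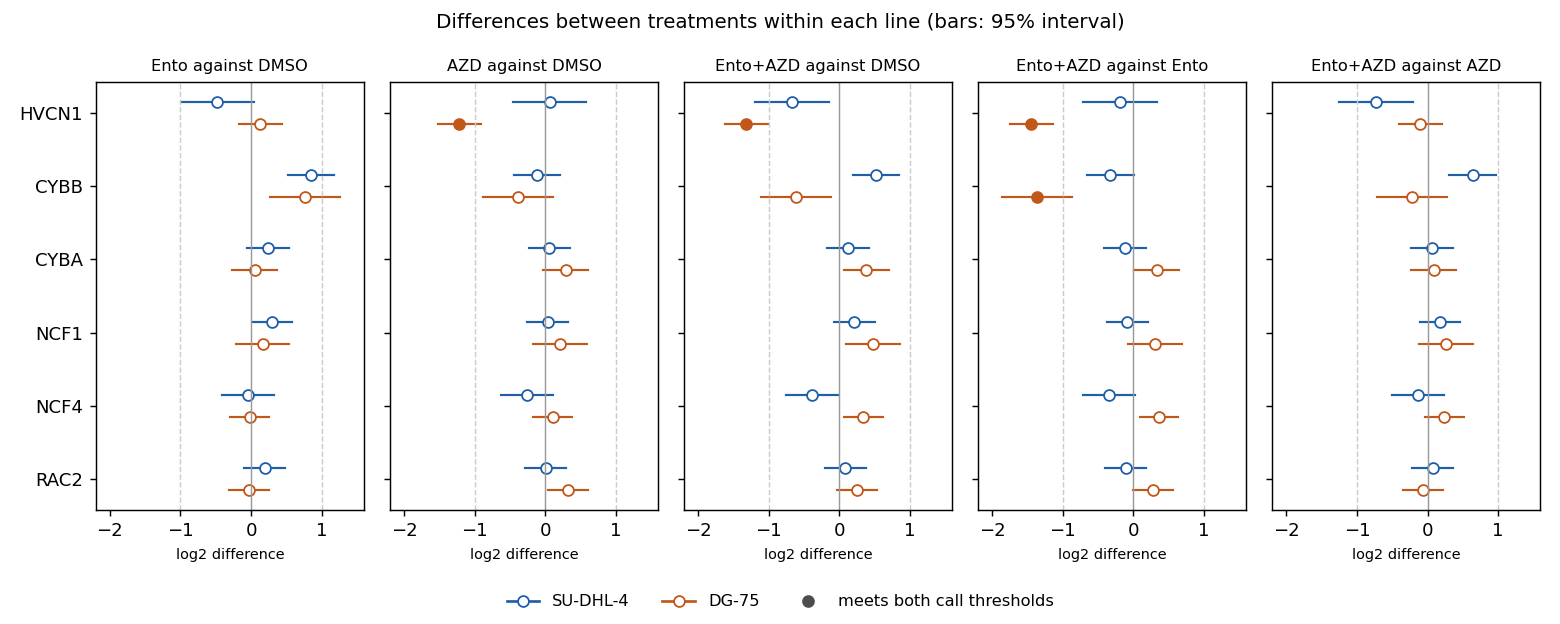
Log2 differences of the 6 genes for 5 comparisons of treatments within SU-DHL-4 (blue) and DG-75 (orange), with 95% intervals from limma, dashed lines at the 2-fold minimum and filled points where both call thresholds were met. The filled points are HVCN1 in 3 DG-75 comparisons, which chose the gene, and CYBB in DG-75 with Ento+AZD against Ento.

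Taking the 6 genes as a group, few differences passed in the comparisons of treatments. In DG-75 with Ento+AZD against DMSO, none of the 5 genes other than HVCN1 was called, where 0.833% of all rows were. Of these 5, 4 had an unadjusted p below 0.05, CYBB with a lower and CYBA, NCF1 and NCF4 with a higher level, in a comparison where 16.0% of all rows did. The median difference of the 6 was 0.30 there, beside -0.07 over all rows. In SU-DHL-4 with Ento+AZD against DMSO limma called 0 of the 6 (3 at an unadjusted p below 0.05, as had 14.0% of all rows) beside 1.19% of all rows, and with AZD 0 of the 6 (0 at an unadjusted p below 0.05) beside 0.18%. Ento+AZD against Ento in SU-DHL-4 gave 0 calls among the 6 (0 unadjusted) beside 0.0821%, and Ento+AZD against AZD gave 0 (2 unadjusted, HVCN1 and CYBB) beside 0.0274%. In DG-75, Ento+AZD against AZD gave 0 calls among the 6 and over all rows (0.0%, with 1030 rows at an unadjusted p below 0.05).

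Across the 12 DG-75 arrays, which span all treatments of that line, the level of HVCN1 correlated with that of CYBB at r = 0.83. It correlated inversely with RAC2 (-0.82), NCF4 (-0.71), CYBA (-0.61) and NCF1 (-0.29). Across the 12 SU-DHL-4 arrays the values were -0.07 for CYBB, 0.39 for RAC2, 0.66 for NCF4, 0.45 for CYBA and 0.10 for NCF1. These describe the arrays and, in DG-75, follow the group differences above. The 5 genes whose pattern was most like that of HVCN1 over all 24 arrays, after the mean of each line was subtracted, were ATP2C1 (r = 0.857), ITGB2 (0.849), VKORC1L1 (0.819), PRMT3 (0.814) and SLC29A1 (0.813). After quantile normalisation ATP2C1 came 7 in this order (r = 0.76) and SLC29A1 came 1, so the order depends on the scaling. ATP2C1 is a calcium and manganese pump of the Golgi, ITGB2 the beta chain of the leukocyte integrins and SLC29A1 a nucleoside transporter. Their r with HVCN1 ranged from 0.831 to 0.949 within DG-75 and from 0.637 to 0.888 within SU-DHL-4. Their differences between Ento+AZD and DMSO in DG-75, from -0.46 for ATP2C1 and PRMT3 to -0.76 for SLC29A1, follow from this choice and are given without a test.

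Some genes that work with the oxidase differed between the lines under DMSO. Of 14 regulators of RAC and of oxidase assembly, 3 were called beside 7.2% of all rows, all higher in SU-DHL-4. PRKCB, a kinase that phosphorylates NCF1, differed by 4.98 (SE 0.326, adjusted p = 6.03e-11). VAV3 and VAV2, exchange factors that load RAC with GTP, differed by 2.44 (adjusted p = 5.13e-08) and 1.58 (adjusted p = 6.31e-08). PRKCB at a mean of 2.96 and VAV3 at 3.12 in DG-75 DMSO lie below every array's median and are not shown to stand above background, so their sizes rest on low levels. RAC1, the widely used relative of RAC2, differed by 0.22 (adjusted p = 0.298). Of 10 genes for other NOX and DUOX enzymes and their partners 0 were called (1 at an unadjusted p below 0.05, beside 27.6% of all rows).

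**Figure D5:**
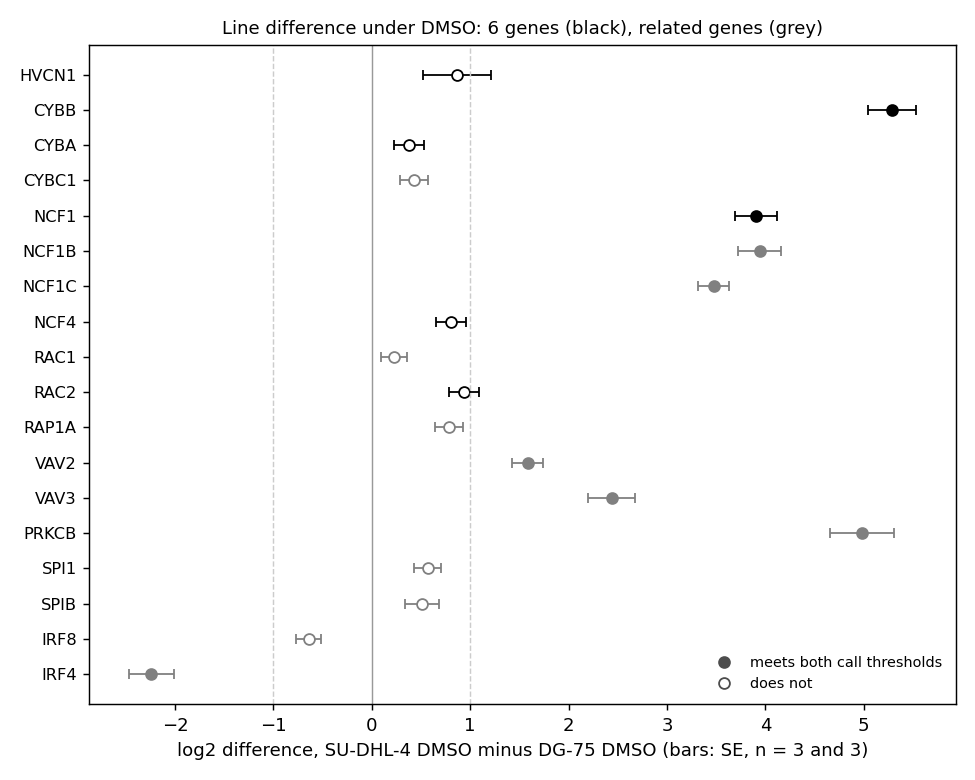
Log2 difference between SU-DHL-4 and DG-75 with DMSO (n = 3 and 3, bars for the SE) for the 6 genes (black) and related genes (grey), with dashed lines at the 2-fold minimum and filled points where both call thresholds were met. Among the genes drawn, CYBB (5.29), PRKCB (4.98) and the NCF1 copies (3.47 to 3.94) lie farthest to the right and IRF4 (-2.24) to the left, with CYBB and PRKCB set against low DG-75 levels.

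The transcription factors known for oxidase genes did not share the size of that difference. SPI1 (PU.1) was higher in SU-DHL-4 by 0.57 (SE 0.137, adjusted p = 0.0041) and SPIB by 0.51 (adjusted p = 0.0488), whereas IRF8 differed by -0.64 (adjusted p = 0.000623) and IRF4 by -2.24 (SE 0.228, adjusted p = 8.85e-08). IRF4 was thus lower in SU-DHL-4, and it was the 1 factor of 7 that was called, beside 7.2% of all rows. Of the phagocyte markers, limma called 0 of 10 between the lines, with 0 at an unadjusted p below 0.05, beside 27.6% of all rows. Their median difference was 0.03. Of 6 B-cell markers 3 were called, MS4A1, CD22 and CD79B, all higher in SU-DHL-4, by 4.45, 1.29 and 1.16. By the adjusted p alone 5 of the 6 passed, all higher in SU-DHL-4, beside 17.6% of all rows. The part of the B-cell markers in the oxidase differences was not tested.

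Other proton and acid transporters gave no common direction between the lines. Of 12, 1 was called higher in SU-DHL-4 (ATP6V0A1, a subunit of the vacuolar proton pump, by 1.42, adjusted p = 1.07e-06) and 1 lower (SLC16A3, a lactate and proton carrier, by -1.17, adjusted p = 0.00734). Over all rows 7.2% were called. The 2 voltage sensor relatives of HVCN1, TPTE and TPTE2, differed by -0.58 (adjusted p = 0.0604) and 0.16 (adjusted p = 0.623). In both lines their DMSO means lie below every array's median, so these sizes are uncertain. Of 15 genes that remove superoxide and peroxide, 0 were called. Of these 15, 8 had an unadjusted p below 0.05, as had 27.6% of all rows. PRDX1, a peroxiredoxin, differed by -0.54 (adjusted p = 0.00685).

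Under the drugs, 2 genes of the receptor's signalling were called against DMSO, 1 in SU-DHL-4 with Ento+AZD, beside 1.19% of all rows, and 1 in DG-75 with Ento+AZD, beside 0.833%. PTPN6 was lower in SU-DHL-4 with Ento+AZD, at 4.98, 4.78 and 4.44 beside 5.97, 6.53 and 5.44 with DMSO, a difference of -1.25 (SE 0.20, adjusted p = 0.00911). The Ento+AZD mean of 4.73 lies below every array's median, so the size of this difference too rests on a level not shown to stand above background. Its adjusted p was 0.144 without the replicate block, 0.0784 without DMSO replicate 2, 0.0512 without Ento+AZD replicate 2, 0.073 without the arrays numbered 2 and 0.114 without those numbered 3. CD79B, a signalling chain of the B-cell receptor that is also a B-cell marker, was higher in DG-75 with Ento+AZD, at 10.27, 10.08 and 9.75 beside 9.03, 8.84 and 9.13, a difference of 1.03 (SE 0.187, adjusted p = 0.0227), and of 9 fits that left out an array or a replicate number, 1 kept the call (the one lacking Ento+AZD replicate 3). Against DMSO, in either line and with any treatment, limma called 0 of the 14 regulators (0 to 5 at an unadjusted p below 0.05), 0 of the 10 genes of other NOX and DUOX enzymes (0 to 2), 0 of the 15 removal genes (0 to 9) and 0 of the 12 acid transporters (0 to 5), where 0.00391% to 1.19% of all rows were called. An unadjusted p below 0.05 was found for 2.81% to 16.0% of all rows. The 9 of 15 removal genes belonged to DG-75 with Ento+AZD, beside 16.0% of all rows. There the median difference was -0.24 for the removal genes and -0.26 for the acid transporters, beside -0.07 over all rows. VAV3 in SU-DHL-4 with Ento+AZD had an adjusted p of 0.0193 with a difference of -0.90, under the minimum. Its Ento+AZD mean of 4.66 lies below every array's median, so this size is uncertain as well.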

How the data were processed

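RNA of 24 cultures (2 lines, 4 treatments, 3 replicates) was hybridised to Clariom D arrays. The deposited log2 values were made by the authors with RMA and limma, and probes were mapped to genes with affycoretools; the annotation's genome build is not given in the sources used here. Levels, which carry no depth, are relative between arrays. Every column of the table belongs to a sample of the series (0 columns unused).

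With limma 3.58.1 in R 4.3.3, each line's 12 arrays were fitted with treatment and replicate number, which stands for the study's batch term, and all 24 arrays were fitted for differences between lines (no block) and between responses. Calls needed a Benjamini-Hochberg adjusted p below 0.05 over 25575 rows and a log2 difference above 1. The scripts were tested on simulated data. The members and gene lists were chosen with earlier results of these data known. Genes were named by a rule: the members, called genes and the 3 highest-level genes of each list, NCF1 copies, neighbours of HVCN1 and the 5 genes most like it. Alternatives covered the block, the arrays fitted, scaling, prior, low rows, fold minimum, rows of a symbol and left-out arrays. Some items are not reported here.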

Additional observations from a re-analysis of the deposited data

How the results depend on the processing

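The number of the 6 genes called was equal in 285 of 312 alternative values over 16 comparisons, and in the 12 comparisons with 0 calls it was 0 in every alternative. The DG-75 counts below include HVCN1, which was chosen because it was called in these comparisons. They describe the fits and lend no support to its calls. For AZD against DMSO in DG-75 the number was 1 (HVCN1), beside 0.18% of all rows. It was 0 in the fit of the compared groups alone, 0 after subtraction of array medians and 0 to 0 with arrays left out. For Ento+AZD against DMSO in DG-75 it was 1 (HVCN1), beside 0.833% of all rows, and 0 to 1 with arrays left out. In DG-75 with Ento+AZD against Ento it was 2 (HVCN1 and CYBB), beside 0.657% of all rows. It was 0 in the fit of the compared groups alone and 0 to 2 with arrays left out. Between the lines it was 2, beside 7.2% of all rows, and 4 with no minimum fold change, beside 17.6%. It was 3, with RAC2, after quantile normalisation, without SU-DHL-4 DMSO replicate 3 and without DG-75 DMSO replicate 2. Why these calls changed was not tested. No difference changed sign in the comparison in which its gene was called.

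The replicate numbers, kept as a block because the study's methods fit a batch term, were not shown to pair the arrays, since deviations of same-numbered arrays from their group means correlated with r between -0.11 and 0.39 in SU-DHL-4 and between -0.35 and 0.34 in DG-75 (18 pairs each). With no replicate block the counts of the 6 genes were 1, 1 and 2 for the 3 DG-75 comparisons above, as with it, and 2 between the lines with the block. The differences themselves did not move (-1.22 for HVCN1 with AZD in DG-75), whereas the SE of HVCN1 in SU-DHL-4 was 0.239 with the block and 0.419 without it.

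Over all rows, counts of calls moved by more than 1.5 times between fits. For SU-DHL-4 and relative to DMSO, they were 13 (1 to 32 over the alternatives, 1 with no replicate block) for Ento, 46 (0 to 119, 9 with no block) for AZD and 304 (0 to 604, 45 with no block) for Ento+AZD. Against DMSO in DG-75 they were 1 (0 to 1) for Ento, 46 (0 to 155, 39 with no block) for AZD and 213 (0 to 611, 208 with no block) for Ento+AZD. Ento+AZD against Ento gave 168 (0 to 424) in DG-75 and 21 (0 to 107) in SU-DHL-4, where Ento+AZD against AZD gave 7 (0 to 22). Between the lines there were 1842 (1301 to 4507), and between the responses 2 (0 to 3) for Ento, 0 (0 to 4) for AZD and 9 (0 to 32) for Ento+AZD. A difference under 2-fold could not be called by the rule, and without detection calls the arrays do not show which low levels stand above background.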
